A study of Mus musculus with 12 samples.

Results

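Among the genes measured in mouse cortex, a small group was low in all libraries but higher in those of mice that had lost Dnmt1 in the oligodendrocyte lineage. These members were selected on the measured values themselves. A row of the deposited table was taken when its level lay under 0.5 FPKM in all 9 libraries other than those of the Dnmt1 CKO mice, was at least 0.1 FPKM in each of the 3 Dnmt1 CKO libraries, and when the lowest of these 3 was over 2 times the highest of the 9. FPKM is the number of sequenced fragments of a transcript, scaled to its length and to the size of the library. The rule found 30 rows, for 28 gene symbols, among the 23548 rows that remained after 302 exact duplicates were dropped. Tex101, Nxf3 and Uba1y meet the same thresholds and are left out by the rule.

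The 12 libraries came from the cortices of C57BL/6 mice at postnatal day 16, in 4 groups of 3 biological replicates. The Dnmt1 CKO mice were Olig1cre/+;Dnmt1flox/flox and their littermates, the Dnmt1 Control mice, were Olig1+/+;Dnmt1flox/flox. The Dnmt3a CKO mice were Olig1cre/+;Dnmt3aflox/flox and the Dnmt3a Control mice Olig1+/+;Dnmt3aflox/flox. Thus all mice carried floxed alleles, and only the CKO mice carried cre, which is driven from the Olig1 locus and acts in the oligodendrocyte lineage while the whole cortex was sequenced. Every level below is therefore an average over recombined and intact cells, and in such bulk tissue a change in the number of cells of a type and a change in RNA per cell cannot be told apart.

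DNMT1 is the maintenance methyltransferase: after each round of DNA replication it copies the methylation of CpG dinucleotides onto the new strand, so that a cell that divides without it loses methylation over successive divisions. DNMT3A sets methylation de novo and does not depend on an existing pattern. In somatic tissues promoter methylation is known to hold down germline genes, some genes of the X chromosome, placental genes and transposon copies, which is why genes with a very low level in normal cortex are of interest where Dnmt1 is deleted.

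The labels were checked first. Dnmt1 transcript was 10.64, 10.18 and 9.78 FPKM in the Dnmt1 Control libraries and 7.26, 9.11 and 9.09 FPKM in the Dnmt1 CKO libraries, so that the groups did not overlap but the cortex kept most of its Dnmt1 transcript. With so few libraries a lack of overlap is weak evidence. Even between the 2 control groups, 8.21% of all rows tested were higher in Dnmt1 Control without overlap and 4.26% lower. Dnmt3a was 13.6, 14.2 and 15.4 FPKM in the Dnmt3a CKO libraries and 31.1, 16.9 and 28.7 FPKM in the Dnmt3a Control libraries, where replicate 2 stood close to the knockouts. Olig1, from whose locus cre is expressed, was lower in both CKO groups, at 18.4 to 21.9 FPKM in Dnmt1 CKO and 30.6 to 38.8 FPKM in Dnmt3a CKO against 42.0 to 50.9 FPKM in the 6 controls.

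The libraries also differed in sex. The Y-linked transcripts Kdm5d, Ddx3y and Eif2s3y were each above 1 FPKM in 9 libraries, including all 3 of Dnmt1 CKO, and were at most 0.0581 FPKM in replicate 3 of the other 3 groups. Xist, the noncoding RNA that coats the inactive X chromosome, was 46.2 to 49.4 FPKM in these 3 libraries and 0.0306 to 0.0853 FPKM in the 6 other libraries with Y transcripts. In the Dnmt1 CKO libraries, which have Y transcripts, Xist was 1.69, 1.798 and 1.85 FPKM, above all 6 of those libraries. When only these 6 libraries stood as the low ones, an alternative chosen after the data were seen, the rule took 39 rows. They were all 30 members with Xist, Ssxb2, Ssxb5, Ssxb6, Pydc3, Hamp2, Krtap5-5, Gm8579 and Speer5-ps1.

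Promoter windows of 5 members are shown here because they span the range of CpG content and the kinds of gene among the members. Each runs 5′ to 3′ on the gene's own strand from 250 bases before to 50 bases after the annotated start (RefSeq, GRCm38.p6), and capitals mark CpG dinucleotides. Mov10l1 (chr15:88982744-88983043, plus strand) and Dpep3 (chr8:105979370-105979669, minus strand) are genes of the male germline, Gm364 (chrX:57408899-57409198, plus strand) is X-linked, Slc5a8 (chr10:88885742-88886041, plus strand) encodes a monocarboxylate transporter, and Psg29 (chr7:17203227-17203526, plus strand) encodes a placental glycoprotein.
Mov10l1: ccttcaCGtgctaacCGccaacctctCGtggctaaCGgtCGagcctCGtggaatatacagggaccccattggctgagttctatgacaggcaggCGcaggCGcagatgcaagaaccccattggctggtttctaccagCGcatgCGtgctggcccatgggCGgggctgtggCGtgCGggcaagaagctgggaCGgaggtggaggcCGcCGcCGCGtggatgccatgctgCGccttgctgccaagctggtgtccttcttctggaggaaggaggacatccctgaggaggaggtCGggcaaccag
Dpep3: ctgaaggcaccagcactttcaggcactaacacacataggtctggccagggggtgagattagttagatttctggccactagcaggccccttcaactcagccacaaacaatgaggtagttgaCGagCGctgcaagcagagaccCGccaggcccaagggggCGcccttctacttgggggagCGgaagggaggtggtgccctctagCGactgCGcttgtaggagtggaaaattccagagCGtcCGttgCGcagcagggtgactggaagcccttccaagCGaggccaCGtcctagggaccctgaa
Gm364: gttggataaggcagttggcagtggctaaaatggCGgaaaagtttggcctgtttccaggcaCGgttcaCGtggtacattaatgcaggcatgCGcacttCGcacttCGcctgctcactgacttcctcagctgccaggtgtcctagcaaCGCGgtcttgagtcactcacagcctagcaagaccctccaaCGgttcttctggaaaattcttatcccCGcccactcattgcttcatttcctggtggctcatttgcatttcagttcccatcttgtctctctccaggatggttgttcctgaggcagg
Slc5a8: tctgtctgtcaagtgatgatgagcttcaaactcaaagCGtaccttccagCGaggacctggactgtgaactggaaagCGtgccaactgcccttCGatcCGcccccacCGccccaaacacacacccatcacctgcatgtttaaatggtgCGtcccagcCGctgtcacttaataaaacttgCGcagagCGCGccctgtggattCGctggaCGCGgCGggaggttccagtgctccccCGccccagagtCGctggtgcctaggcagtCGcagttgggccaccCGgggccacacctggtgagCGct
Psg29: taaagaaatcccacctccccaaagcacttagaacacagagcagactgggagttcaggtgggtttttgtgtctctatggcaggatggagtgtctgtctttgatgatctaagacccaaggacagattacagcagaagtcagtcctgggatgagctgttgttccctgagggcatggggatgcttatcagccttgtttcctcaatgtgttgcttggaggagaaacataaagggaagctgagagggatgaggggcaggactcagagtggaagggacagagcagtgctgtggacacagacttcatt
Mov10l1 and Slc5a8 each had 20 CpG in the window, Dpep3 12 and Gm364 10, while Psg29 had 0.

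The members were low even where they were highest. Their mean level in Dnmt1 CKO ranged from 0.128 to 1.11 FPKM with a median of 0.330 FPKM, and in 20 rows every Dnmt1 CKO value lay under 0.5 FPKM. Only Matn1 and Rhox5 had a value of at least 1 FPKM. The term "switched on" did not hold for all of them, since 5 rows were listed at 0 in all 9 other libraries and 25 were above 0 in at least 1, including 6 above 0 in all 9. The median over the rows of the mean in the 9 libraries was 0.0107 FPKM. Summed over the 30 rows, the level was 12.338, 12.415 and 10.403 FPKM in the Dnmt1 CKO libraries and lay between 0.799 and 1.43 FPKM in the other 9, as the bars of summed level show. That the sums are higher in Dnmt1 CKO follows from the rule, which chose each row so.

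**Figure D1:**
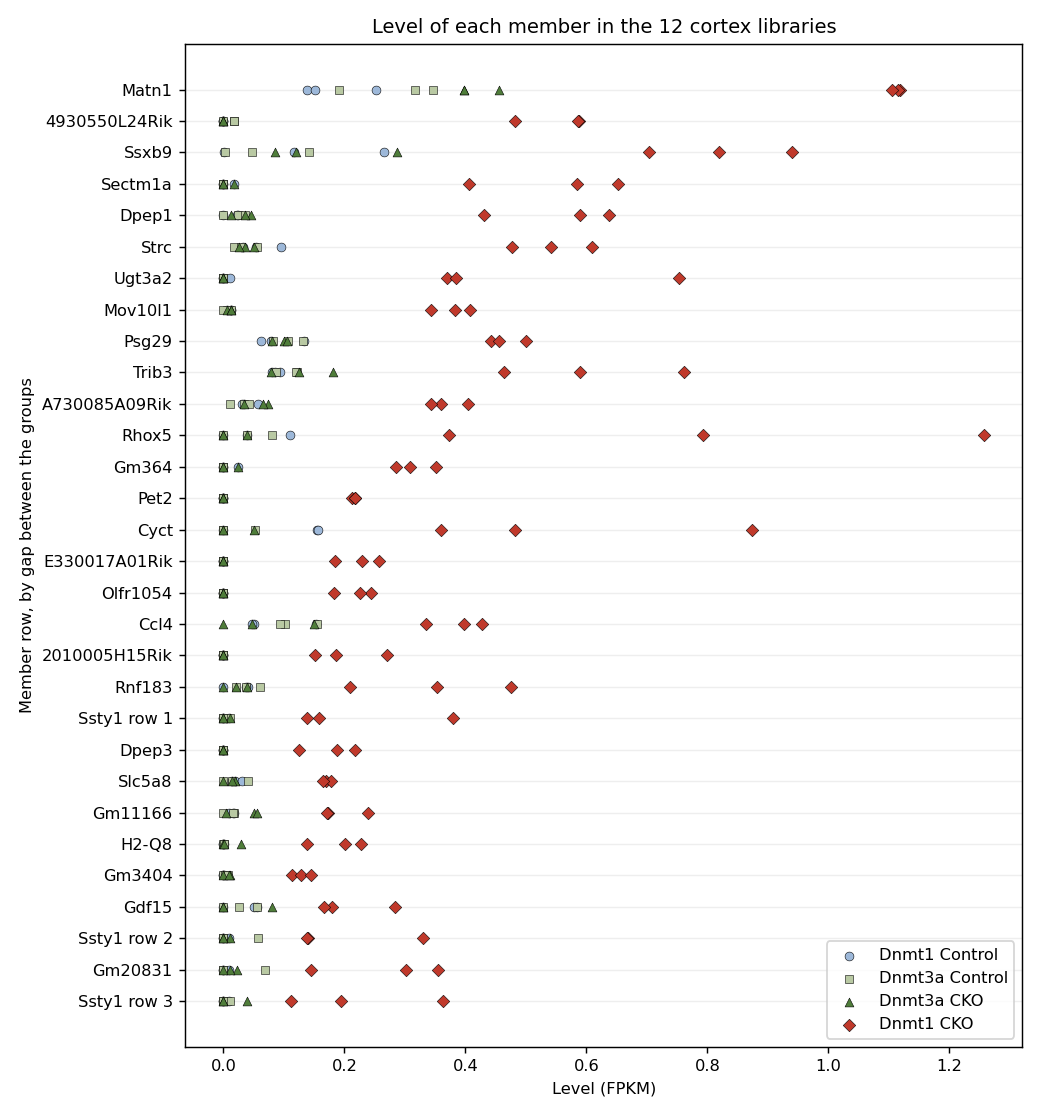
Level in FPKM of each of the 30 member rows (y axis, ordered by the gap between the lowest Dnmt1 CKO value and the highest other value) in each of the 12 libraries; each symbol is 1 library, red diamonds are Dnmt1 CKO. The red diamonds sit to the right of all other symbols in every row because the rule chose the rows so, and they spread most for Rhox5, from 0.372 to 1.26 FPKM.

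**Figure D2:**
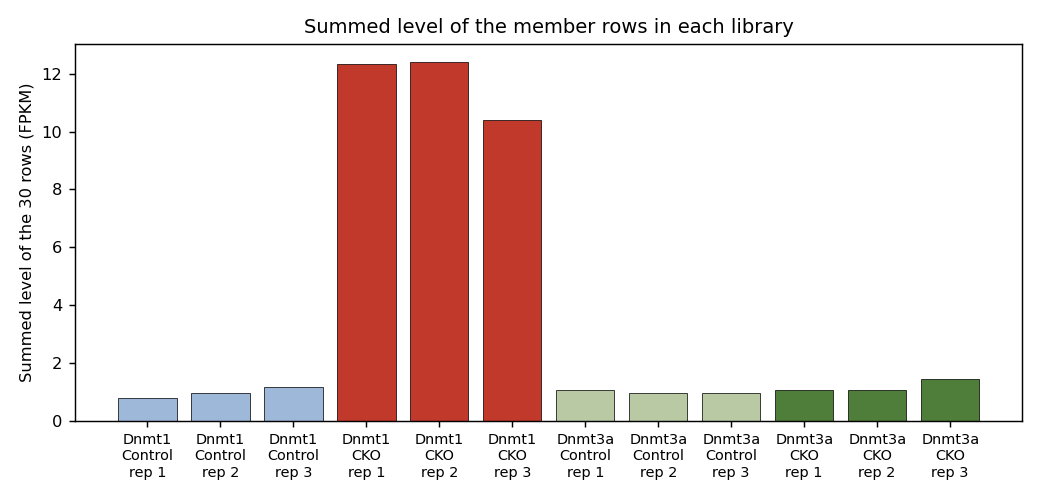
Summed level of the 30 member rows in FPKM in each of the 12 libraries, 1 bar per library. The 3 Dnmt1 CKO bars reach 10.403 to 12.415 FPKM and the other 9 stay between 0.799 and 1.43 FPKM, a separation that the rule fixed when it chose the rows.

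Few fragments lie behind such levels. The authors deposited no counts, but for some genes the low values fell on whole multiples of what 1 fragment is worth. By this estimate 1 fragment on a transcript of 1 kb was worth 0.0242 to 0.0283 FPKM, and 0.1 FPKM stood for 3.54 to 4.13 fragments. For the 16 member rows whose values fell on such steps within a tolerance of 0.15 of a fragment, the fewest fragments in a Dnmt1 CKO library ranged from 7 to 113 with a median of 30.5. For 12 of the other 14 rows an estimate from the longest annotated transcript ranged from 3.70 to 92.2 with a median of 7.66, and 2 had no annotated length. For the 16 rows on steps, the most fragments in any of the other 9 libraries ranged from 1 to 34 with a median of 3. Depth differed little, with relative depths of 0.924, 0.927 and 1 in Dnmt1 CKO and 0.856 to 0.943 in the others.

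Some members are genes of the germline. Mov10l1, an RNA helicase needed to load small piRNAs that silence transposons in male germ cells (chromosome 15, 88982909 to 89055152), was at 0.407, 0.382 and 0.342 FPKM in Dnmt1 CKO (0.377 ± 0.0328, SD, n = 3). In the other 9 libraries it ranged from 0 to 0.0131 FPKM, which the step estimate gave as 58 to 64 fragments in a Dnmt1 CKO library and at most 2 in any other. The 3 knockouts were close to each other and the 3 other groups overlapped fully. Its RNA helicase relative Mov10, which is not restricted to the germline, was among the rows tested and was not called in the Dnmt1 line.

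Dpep3, a membrane dipeptidase of testicular germ cells (chromosome 8, 105973513 to 105979429), was listed at 0 in all 9 other libraries and at 0.125, 0.217 and 0.187 FPKM in Dnmt1 CKO. Of its 50-base words, 3.34% occur in another annotated gene, the overlapping Gm45752. Its relative Dpep1, the dipeptidase best known from kidney (chromosome 8, 123186242 to 123201812), was at 0.637, 0.589 and 0.430 FPKM in Dnmt1 CKO, or 55, 51 and 40 fragments. Dpep1 did not exceed 0.0453 FPKM, or 4 fragments, elsewhere. Both dipeptidase genes are on chromosome 8, more than 1 Mb apart.

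Cyct, the cytochrome c form of the testis (chromosome 2), was at 0.873, 0.482 and 0.360 FPKM in Dnmt1 CKO. Elsewhere Cyct was at 0.155, 0.156 and 0 FPKM in Dnmt1 Control, at 0, 0.0516 and 0 FPKM in Dnmt3a Control and at 0, 0 and 0.0507 FPKM in Dnmt3a CKO. With 8 to 18 fragments in a knockout library and up to 3 in a Dnmt1 Control library, Cyct is among the members with the least data, and its Dnmt1 CKO values differed 2.43-fold among themselves.

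The X chromosome carries 5 of the 25 members with a GENCODE position (20%), against 4.24% of all genes in the table. Among the other genes that met the ceiling and the minimum of the rule but not its ratio, the share was 4.53%. Those genes are not matched to the members for their level outside Dnmt1 CKO. Rhox5, a homeobox gene of the reproductive cluster on the X that is known as a target of promoter methylation, varied most among the knockouts, at 0.372, 1.26 and 0.793 FPKM. In the other libraries Rhox5 ranged from 0 to 0.109 FPKM, or at most 3 fragments against 10, 34 and 23. Of 31 other rows with Rhox symbols, 16 were at 0 in all 12 libraries and 0 passed the filter of the fit described below. Rhox4e was the only one of them with all 3 Dnmt1 CKO values above the other 9, at 0.0137, 0.0999 and 0.00828 FPKM against 0. Of all 23548 rows, 484 (2.06%), or 2.34% of those above 0 in at least 1 library, had their Dnmt1 CKO values above the other 9 in this way, and the counts for other families below stand beside these shares.

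Ssxb9 belongs to the SSX cancer-testis family of the X (8366978 to 8375390). Its level was 0.704, 0.940 and 0.820 FPKM in Dnmt1 CKO and 0.000514 to 0.286 FPKM in the other 9 libraries. Of its 50-base words 52.3% occur in other annotated genes, most in Ssxb2. Of 7 other Ssxb rows, which were looked at after the values were seen, 5 had all Dnmt1 CKO values above all 9 others (Ssxb2, Ssxb5, Ssxb6, Ssxb8 and Ssxb10), and 4 were called higher by limma in the Dnmt1 line, beside 1.15% of all rows tested. Because the fragments of these copies can be split in different ways, the family is better read as a whole than gene by gene.

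Pet2, now Dcaf8l in RefSeq, was listed at 0 in all 9 other libraries and at 0.212, 0.217 and 0.217 FPKM in Dnmt1 CKO, with almost no spread. The other X-linked protein-coding genes, 4930550L24Rik and Gm364, have no role that can be stated here. For 4930550L24Rik the level was 0.588, 0.586 and 0.481 FPKM in Dnmt1 CKO, or 34, 34 and 30 fragments, against at most 1 fragment in any other library. For Gm364 it was 0.285, 0.308 and 0.351 FPKM against at most 0.0237 FPKM. Gm364 and 4930550L24Rik lie within 2 Mb of each other on the X.

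Another 4 member rows come from the long arm of the Y chromosome: 3 rows for Ssty1, a spermiogenesis transcript present in many copies, and 1 row for Gm20831. These 2 genes are 8% of the 25 placed members, against 0.171% of all genes in the table. Among the other genes that met the ceiling and the minimum of the rule but not its ratio, the share was 0%. That share leaves out member symbols, and a second row of Gm20831 met the same ceiling and minimum. All 50-base words of Ssty1 and of Gm20831 occur in other annotated genes. Their levels thus cannot be assigned to single copies, and the 2 genes cannot be taken as separate cases. The first Ssty1 row was at 0.379, 0.139 and 0.158 FPKM in Dnmt1 CKO and at most 0.0105 FPKM elsewhere. The other Ssty1 rows were less silent elsewhere. The second was at 0.330, 0.139 and 0.137 FPKM in Dnmt1 CKO and reached 0.0569 FPKM elsewhere. The third was at 0.363, 0.195 and 0.112 FPKM and reached 0.0384 FPKM elsewhere. Gm20831 was at 0.302, 0.354 and 0.145 FPKM in Dnmt1 CKO and at most 0.0692 FPKM elsewhere. These rows were 0 in all 3 libraries without Y transcripts. In the 6 other libraries with Y transcripts the 3 Ssty1 rows reached at most 0.0105, 0.0569 and 0.0384 FPKM. The rule places these values below all 3 knockouts. Of 4 rows for the related Ssty2, none had all Dnmt1 CKO values above the other 9.

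A further pair of members has products tied to placenta and to antigen presentation. Psg29, a pregnancy-specific glycoprotein of the trophoblast (chromosome 7, 17203477 to 17215760), was at 0.442, 0.4996 and 0.455 FPKM in Dnmt1 CKO. It was detected in all 9 others, at 0.0621 to 0.133 FPKM. H2-Q8, a class Ib molecule of the major histocompatibility complex, was at 0.228, 0.2002 and 0.138 FPKM in Dnmt1 CKO and at most 0.0291 FPKM elsewhere, though close paralogs in the H2-Q cluster can share its fragments. None of the 8 other H2-Q rows had all Dnmt1 CKO values above the other 9.

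Further members encode secreted and structural proteins. Matn1, the cartilage matrix protein matrilin 1 (chromosome 4, 130944385 to 130955475), had the highest mean among the members and the lowest ratio of highest to lowest value, at 1.12, 1.12 and 1.11 FPKM, or 87, 87 and 93 fragments. It was also the least silent elsewhere, at 0.137, 0.151 and 0.252 FPKM in Dnmt1 Control, 0.347, 0.192 and 0.317 FPKM in Dnmt3a Control and 0.397, 0.398 and 0.456 FPKM in Dnmt3a CKO. Its lowest Dnmt1 CKO value was 2.43 times the highest of these. Strc, the stereocilin of inner ear hair cells, was at 0.609, 0.476 and 0.542 FPKM in Dnmt1 CKO, or 113 to 144 fragments, the most of any member on whole steps, and at 0.0180 to 0.0952 FPKM elsewhere. Strc overlaps Ckmt1, an abundant creatine kinase gene at 93.6 ± 3.40 FPKM in Dnmt1 CKO and 97.5 ± 4.82 FPKM in Dnmt1 Control (SD, n = 3; adjusted p = 0.669 from limma).

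Sectm1a, a secreted and transmembrane protein, was at 0.652, 0.585 and 0.407 FPKM in Dnmt1 CKO, or 27 to 40 fragments, and reached at most 1 fragment in any other library. Ccl4, a chemokine of activated macrophages and microglia, was at 0.334, 0.427 and 0.398 FPKM in Dnmt1 CKO and at 0 to 0.155 FPKM elsewhere, so that its lowest knockout value was only 2.16 times the highest other value. Its gene neighbour Ccl3, 13229 bases away, was called higher in the Dnmt1 line (log2 fold change 1.17 ± 0.23, SE, adjusted p = 0.0494 from limma), but replicate 1 of Dnmt3a Control, at 0.368 FPKM, exceeded all 3 Dnmt1 CKO values of 0.227, 0.338 and 0.175 FPKM.

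Among enzymes and transporters, Ugt3a2, a glycosyltransferase, was at 0.753, 0.370 and 0.384 FPKM in Dnmt1 CKO and above 0 in a single other library, with 1 fragment. Its neighbouring paralog Ugt3a1, with which it shares 7.01% of its words, reached at most 0.00168 FPKM in all 12 libraries. Slc5a8, a sodium-coupled transporter of lactate and butyrate, was at 0.169, 0.178 and 0.165 FPKM in Dnmt1 CKO, or 37 to 39 fragments, and at 0 to 0.0406 FPKM elsewhere. Rnf183, a RING finger ubiquitin ligase, was at 0.210, 0.475 and 0.353 FPKM and at most 0.0609 FPKM elsewhere.

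Trib3 and Gdf15 are known as genes of the cellular stress response. Trib3, a pseudokinase induced by endoplasmic reticulum stress, was at 0.589, 0.762 and 0.463 FPKM in Dnmt1 CKO and was detected in all 9 others at 0.0783 to 0.181 FPKM. Gdf15, a stress-induced cytokine that is also a p53 target, was at 0.283, 0.179 and 0.167 FPKM in Dnmt1 CKO and at 0 to 0.0804 FPKM elsewhere, which rests on 7 to 11 fragments against at most 3. By the ratio of the lowest Dnmt1 CKO value to the highest other value, Gdf15 passed the rule most narrowly of all.

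The remaining members are of mixed or unknown role. Olfr1054, an olfactory receptor, E330017A01Rik (Ftdc2 in RefSeq) and 2010005H15Rik (Csta2 in RefSeq, a stefin-type protease inhibitor) were listed at 0 in all 9 other libraries. Their means in Dnmt1 CKO were 0.218 ± 0.0319, 0.224 ± 0.0364 and 0.203 ± 0.0610 FPKM (SD, n = 3). Of 1116 other olfactory receptor rows, 844 were at 0 in all 12 libraries and 3 had all Dnmt1 CKO values above all 9 others. The noncoding RNAs A730085A09Rik (Kank4os in RefSeq) and Gm11166 were at 0.344 to 0.404 FPKM and 0.172 to 0.240 FPKM in Dnmt1 CKO, against at most 0.0742 and 0.0549 FPKM elsewhere. A730085A09Rik lies antisense to Kank4 by its RefSeq name, and Kank4 itself was 0.665 ± 0.0804 FPKM in Dnmt1 CKO and 0.929 ± 0.0853 FPKM in Dnmt1 Control (SD, n = 3); whether strand was used in the quantification is not given, so fragments of both genes may not be told apart. Gm3404, with 90.7% of its words in copies such as Gm3402, was at 0.113, 0.128 and 0.144 FPKM in Dnmt1 CKO.

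The 3 knockout libraries did not rank the members alike. Replicate 1 held the highest value in 16 rows, replicate 2 in 10 and replicate 3 in 4, and replicate 3 held the lowest in 16. The ratio of the highest to the lowest Dnmt1 CKO value ranged from 1.01 for Matn1 to 3.38 for Rhox5, with a median of 1.44, and was above 2 in 8 rows. Without replicate 3 the rule took 46 rows, and without any other single library it took 30 to 36. Leaving out a library only loosens the rule, so these counts cannot fall below 30.

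The threshold itself was not placed in a gap for every member. Just inside it stood Gdf15, Gm20831 and Ccl4, with the lowest Dnmt1 CKO value 2.07, 2.09 and 2.16 times the highest of the 9. Just outside stood Lilrb3 with 1.92, Ssxb8 with 1.85 and a second row of Gm20831 with 1.82. At the other end, 12 rows were listed at 0 in the 9 libraries or were more than 10 times above them.

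**Figure D3:**
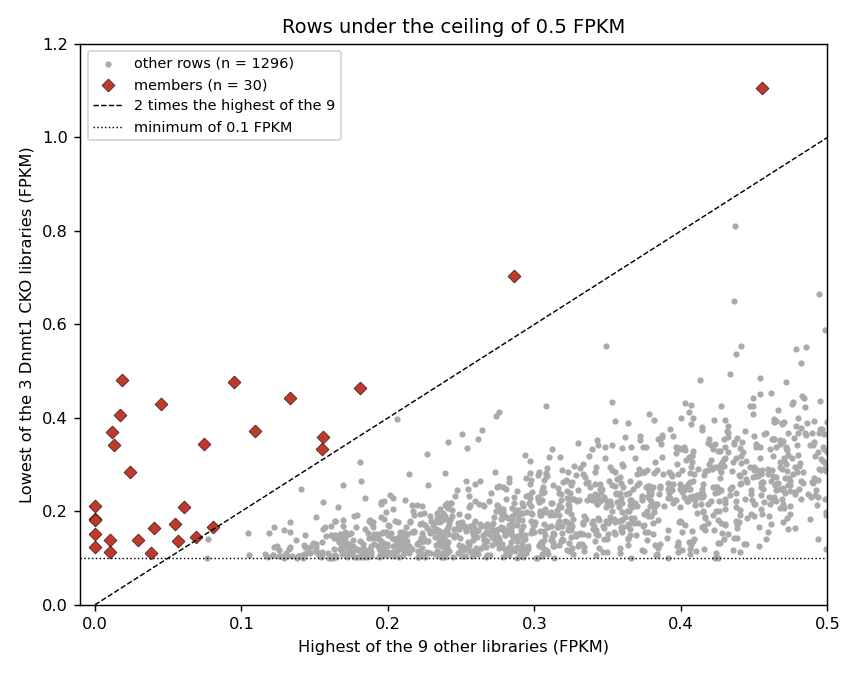
Lowest of the 3 Dnmt1 CKO libraries against the highest of the 9 other libraries, both in FPKM, for the 1326 rows that meet the ceiling and the minimum of the rule; each point is 1 row, the dashed line marks 2 times and the dotted line 0.1 FPKM. The 30 members (red) are those above the dashed line, with Matn1 alone above 1 FPKM and most of the others at the left edge.

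The same rule was then turned to the other groups. With the Dnmt3a CKO libraries as the high ones it took 1 row, and with either control group 0 rows. The 1 row was Amd1, an enzyme of polyamine synthesis, at 1.91, 5.85 and 3.64 FPKM in Dnmt3a CKO and at most 0.000502 FPKM in the other 9 libraries. Its close copy Amd2 was at 27.1, 23.1 and 26.6 FPKM in these 3 libraries, and the sum of both rows, 29.0, 29.0 and 30.3 FPKM, lay within the 24.5 to 32.9 FPKM of the others.

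The mirrored rule, with levels under 0.5 FPKM in the 3 Dnmt1 CKO libraries and over 2 times the highest of these in all 9 others, and at least 0.1 FPKM in each of the 9, took 10 rows. The widest gaps were those of Cldn14, Casr, Slc45a3, Sec14l5 and Insc. Cldn14, a claudin, was at 0.294, 0.275 and 0.221 FPKM in Dnmt1 CKO and 1 to 1.61 FPKM elsewhere, and Casr, the calcium-sensing receptor, at 0.240 to 0.302 FPKM against 0.866 to 1.33 FPKM. None of the 10 was listed at 0 in a Dnmt1 CKO library. Of the 30 member rows, 24 were at 0 in at least 1 of the 9 others. In all 3 libraries of a group, 6 were at 0 in Dnmt1 Control, 8 in Dnmt3a Control and 7 in Dnmt3a CKO. These counts cover different numbers of libraries and rest on the values that chose the rows, so they are not compared. At more than 3 times, the mirrored rule kept 1 row and the rule itself 21.

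The rule held all 9 other libraries low for the members but did not set them against each other, and these libraries were compared in fits across all rows. A row entered these fits when it had at least 0.1 FPKM in 3 or more of the 12 libraries, which all 30 member rows met through the Dnmt1 CKO libraries. Values on the log2(FPKM + 0.1) scale were fitted with limma, and rows were called at an FDR of 10% after Benjamini-Hochberg adjustment of two-sided p-values. On this scale the fold change of low genes is understated. Since the members were capped in these libraries and mostly lie under the pseudocount of 0.1 FPKM, few of them could have been called, and their values below are a description that says nothing of an effect of Dnmt3a.

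In the Dnmt3a line the members stayed low, as the rule requires. Of the 24 member rows with any value in the 6 libraries of the Dnmt3a line, 0 were called between Dnmt3a CKO and Dnmt3a Control, and 0 had an unadjusted p under 0.05. Of all 16707 rows tested in limma, 2 were called, 0.012%, and 1132 had an unadjusted p under 0.05. The median log2 fold change was 0.04 over the member rows and 0.01 over all rows, and the single values ranged from -0.48 for Ccl4 to 0.70 for Ssxb9 with a median SE of 0.23. Matn1 was the only member whose groups did not overlap, higher in Dnmt3a CKO (log2 fold change 0.45 ± 0.20, SE, adjusted p = 0.717 from limma), beside 6.99% of all rows that did not overlap in this direction and 5.49% in the other. The remaining 6 member rows, Ugt3a2, Pet2, E330017A01Rik, Olfr1054, 2010005H15Rik and Dpep3, were listed at 0 in all 6 libraries of the line.

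The same holds for the controls of both lines. Between Dnmt1 Control and Dnmt3a Control 0 of 25 member rows with any value were called by limma and 0 had an unadjusted p under 0.05, where 2 of all 16707 rows (0.012%) were called and 1227 had an unadjusted p under 0.05. Their log2 fold changes ranged from -0.46 for Matn1 to 0.70 for Cyct. No member row separated these groups without overlap, but the rule capped the members in these libraries and many of their values are 0. Of all rows, 8.21% separated the groups with Dnmt1 Control higher and 4.26% with it lower. With 3 mice a group, differences of the size of these standard errors could not be seen.

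**Figure D4:**
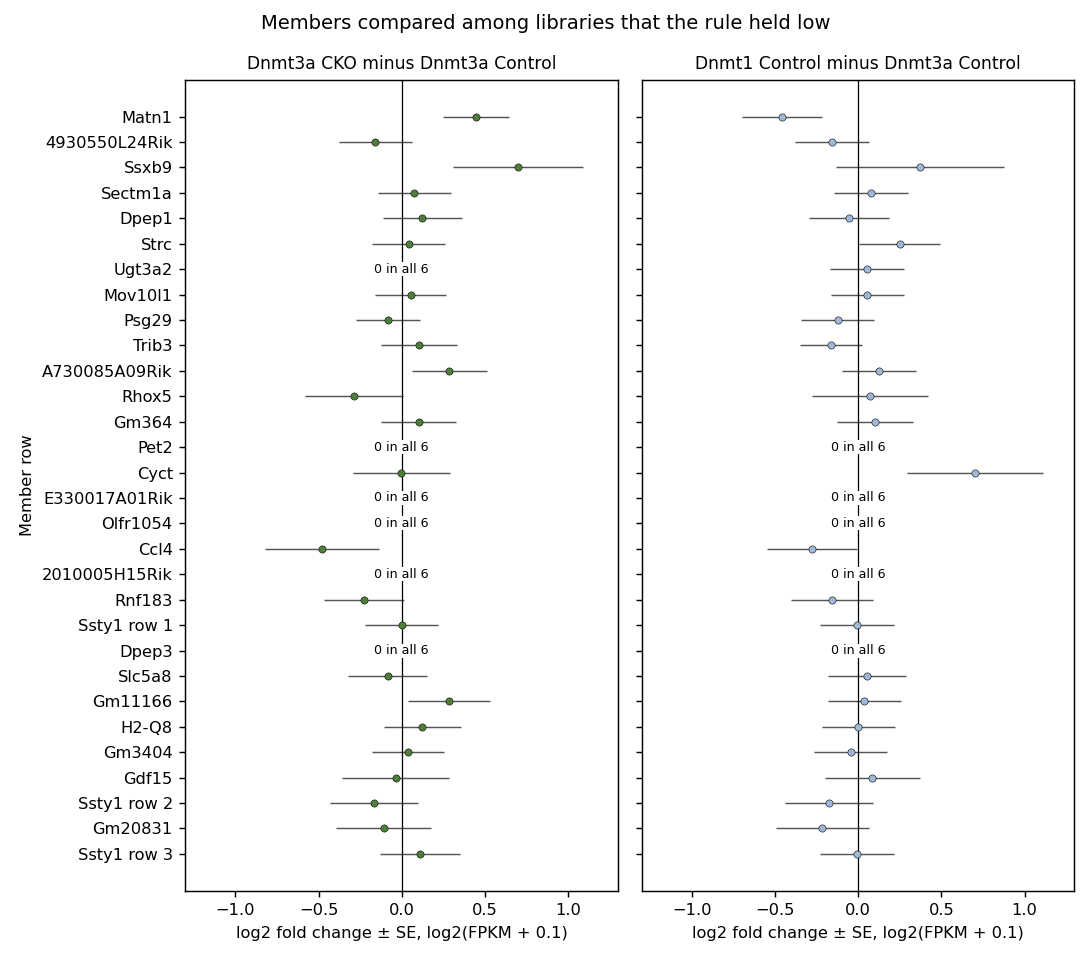
Log2 fold change with its SE on the log2(FPKM + 0.1) scale for each member row, left for Dnmt3a CKO against Dnmt3a Control and right for Dnmt1 Control against Dnmt3a Control (n = 3 libraries per group); rows marked as 0 had no value above 0 in the 6 libraries. The points scatter around 0, from -0.48 to 0.70 on the left and from -0.46 to 0.70 on the right, and 0 of them passed 10% FDR.

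The Dnmt1 line itself chose the members, so its fit is given here only for other genes. Of 16715 rows tested with limma between Dnmt1 CKO and Dnmt1 Control, 193 were called higher (1.15%) and 366 lower (2.19%), and 29 of the 193 were member rows, a count that the rule all but fixes. Gene lists that bear on the members were counted with the members left out, beside a median log2 fold change of -0.02 over all rows.

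Of 35 tested genes of the germline list 1 was called higher, beside 1.15% of all rows. It was Fkbp6, a chaperone of the piRNA pathway, at 0.390, 0.388 and 0.220 FPKM in Dnmt1 CKO against 9.78e-05, 4.07e-05 and 0.0827 FPKM in Dnmt1 Control. The median log2 fold change of these 35 genes was 0.22, with 27 rows above 0. Dppa3, Stra8, Tnp1, Akap4, Pgk2 and Rpl10l of that list were listed at 0 in all 12 libraries. Of 12 tested X-linked germline genes 4 were higher (Ssxb2, Xlr4a, Xlr4c and Tex13) and 0 lower, with a median of 1.07. Xlr4a and Xlr4c, however, also varied among the other libraries, Xlr4a from 0 to 1.42 FPKM, and its Dnmt1 CKO values of 0.973, 1.02 and 1.61 FPKM overlapped with those of Dnmt3a CKO.

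Placental genes were mostly silent. Of 46 listed, 25 were at 0 in all 12 libraries and 8 besides Psg29 were tested, of which 1 was called. This was Psg23, a relative of Psg29 with a far higher level: 15.6, 16.8 and 14.7 FPKM in Dnmt1 CKO against 1.504, 1.42 and 1.74 FPKM in Dnmt1 Control (log2 fold change 3.26 ± 0.09, SE, adjusted p = 8.8e-06 from limma). Psg23 was at 1.59 to 1.92 FPKM in the 6 libraries of the Dnmt3a line. Of 13 other Psg rows in the table it was the only one with all Dnmt1 CKO values above the other 9. Of 48 tested imprinted genes, by contrast, 1 was called and it was lower (Sgce, log2 fold change -0.23 ± 0.05, SE, adjusted p = 0.0644 from limma).

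Of 24 tested genes that write, erase or read DNA methylation other than members, 0 were called at 10% FDR in limma. Of 20 tested genes for silencing of germline genes, including KRAB zinc finger cofactors, Suv39h2, a histone H3 lysine 9 methyltransferase, was the only one called, higher at 2.87, 2.21 and 2.09 FPKM against 1.26, 1.19 and 1.18 FPKM. Of 19 tested p53 targets other than Gdf15, Fas and Trp53inp1 were higher and 0 lower. Of 26 tested class I histocompatibility genes other than H2-Q8, H2-K1, H2-D1 and B2m were higher and 0 lower, B2m at 59.9, 59.8 and 60.7 FPKM against 47.2, 48.6 and 45.8 FPKM. In the Dnmt3a line B2m reached 57.8 FPKM. H2-D1, at up to 12.42 FPKM in Dnmt3a CKO, overlapped with its 12.09 to 13.94 FPKM in Dnmt1 CKO. Fas, at up to 1.09 FPKM in Dnmt3a CKO, overlapped with its 0.9593 to 1.102 FPKM in Dnmt1 CKO. H2-K1 and Trp53inp1 did not overlap with the Dnmt3a line. Interferon-induced genes were higher in 12 of 31 tested, for example Isg15 at 2.56, 3.26 and 3.56 FPKM against 1.19, 1.07 and 0.979 FPKM and Ifitm3 at 10.97, 11.88 and 10.76 FPKM against 7.77, 7.61 and 6.28 FPKM.

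Markers of cell types differed in the same libraries. All 16 oligodendrocyte markers tested were lower in Dnmt1 CKO, with a median log2 fold change of -1.78. Their summed level was 615, 715 and 678 FPKM in Dnmt1 CKO, 2360, 2235 and 2028 FPKM in Dnmt1 Control, and 2564 to 3176 FPKM in the Dnmt3a line. Mbp was the most abundant, at 313.0, 370.4 and 350.4 FPKM against 1189, 1103 and 991 FPKM, and no marker of the list was at 0. Of 10 progenitor markers 4 were lower (Neu4, Bmp4, Gpr17 and Pdgfra). The members were thus high in the 3 libraries with the lowest oligodendrocyte marker levels.

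Of 10 microglia markers 3, Trem2, C1qa and C1qb, were higher and 0 were lower, and no marker of the list was at 0 in all 12 libraries. The median log2 fold change of the list was 0.07, with 7 of 10 above 0. C1qa, at 28.6, 27.6 and 28.6 FPKM in Dnmt1 CKO, and C1qb, at 31.4, 28.4 and 28.6 FPKM, lay above all 9 other libraries, the highest of which was replicate 2 of Dnmt3a CKO with 27.3 FPKM for either gene. Trem2, at 7.37, 7.95 and 6.92 FPKM in Dnmt1 CKO, was at 8.17 FPKM in that replicate. The summed level of the interferon list was 57.0, 58.1 and 62.3 FPKM in Dnmt1 CKO and 35.7 to 47.0 FPKM in the other 9, with Ifitm3 the most abundant and Ifnb1 at 0. Of the astrocyte markers Gfap was higher and Aqp4 and Slc39a12 were lower. None of the 12 neuronal, 10 endothelial, 10 choroid plexus or 6 tested lymphocyte markers and none of the 4 tested Y-linked genes were called, while Rgs5 and Acta2 of the mural list and Hba-a1 of the blood list were lower. The part of these cell types in the members' levels was not tested.

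More rows were detected in the Dnmt1 CKO libraries in general. With the members left out, 18744, 18728 and 18734 rows were above 0 in Dnmt1 CKO and 18419, 18404 and 18564 in Dnmt1 Control (18735 ± 8.08 against 18462 ± 88.4, SD, n = 3). A two-sided exact permutation test gave p = 0.1, and 3 against 3 libraries cannot go lower. In the Dnmt3a line the counts were 18521 ± 91.5 and 18484 ± 39.0 (exact permutation test, two-sided, p = 0.7). The Dnmt1 CKO libraries were also among the deepest, and the part of depth was not tested. A value listed at 0 can be a failed estimate of the quantification rather than an absence of fragments.

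A position in GENCODE M21 (GRCm38, also called mm10) was found for 25 of the 28 symbols, and RefSeq gave the chromosome of the other 3 (A730085A09Rik, Gm11166 and H2-Q8). The members lay on 12 chromosomes, and 7 of the 25 placed ones were on the X or Y. No member was within 100 kb of another, and within 1 Mb there were 2, the Y-linked Ssty1 and Gm20831. Around 21 of the members 132 other genes of the table lay within 100 kb, of which 97 were tested in the Dnmt1 line. Of these, 3 were called higher (3.09%, beside 1.15% of all rows) and 2 lower (2.06%, beside 2.19%). The 3 higher ones were Ccl3 next to Ccl4 and Ssxb10 and Ssxb2 next to Ssxb9, all relatives of the member beside them. The lower ones were Cpox, 31553 bases from E330017A01Rik, and Pdia3, 26607 bases from Strc. For most members, then, no neighbour was called.

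Promoter windows were found for 21 of the 28 members and for 17677 of the 23354 symbols of the table. The members' windows were poor in CpG: the median was 6 CpG in 300 bases against 14 in all genes, and the median ratio of observed to expected CpG was 0.320 against 0.573. However, the 974 other low-level genes, which met the ceiling and the minimum of the rule but not its ratio, were also poor in CpG. Their medians were 7 CpG and 0.367. They are not matched to the members for level outside Dnmt1 CKO, where the median over the member rows of the highest value was 0.0430 FPKM. Over the 17 members with 1 row and 1 annotated gene the median ratio was 0.436, above the 0.367 of these low-level genes, so the order of members and comparison genes depends on the members counted. The ratio was above 0.6 in 4 members (19.05%), in 29.2% of these low-level genes and in 47.9% of all. The 4 were Trib3, Slc5a8, Mov10l1 and 4930550L24Rik.

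Another 5 members, or 23.8% of the 21, had no CpG at all in the window, against 1.75% of the other low-level genes and 4.53% of all genes. They were Psg29, Gm11166, Gm3404, Ssty1 and Gm20831, and the last 3 have near-identical copies elsewhere. Thus the members held both CpG-containing promoters, as printed for Mov10l1 and Slc5a8, and windows without any CpG, as printed for Psg29.

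**Figure D5:**
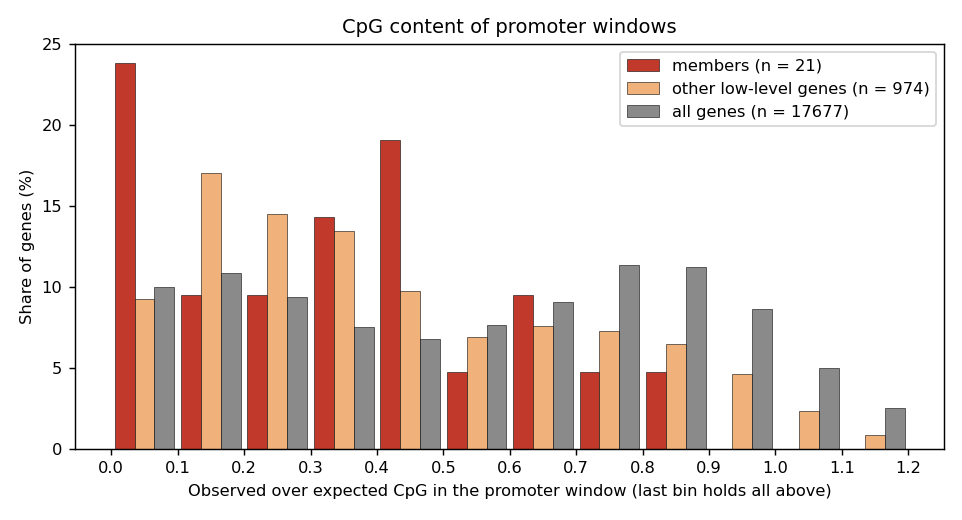
Share of genes in percent by the ratio of observed to expected CpG in the 300-base promoter window, for the members (n = 21), the other low-level genes (n = 974) and all genes with a window (n = 17677). The members' bars lie mostly below 0.5, like those of the other low-level genes, and the first bar holds the 5 members without CpG.

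A set of 4 short motifs was searched on both strands of the windows. The E-box CACGTG, which MYC and MGA complexes bind, was found in 3 members (Mov10l1, Gm364 and Gdf15; 14.3%), in 6.57% of the other low-level genes and in 9.19% of all genes. The Sp1-type box GGGCGG was found in 6 members (28.6%), in 38.6% of the other low-level genes and in 49.98% of all genes. The E2F-type sequence TTTCCCGC and the full cyclic AMP response element TGACGTCA were found in 0 members, and in 1.63% and 2.61% of all genes. No motif contains another, and a match is a description of the letters only.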

How the data were processed

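RNA-seq was measured in 12 mouse cortex libraries. Reads were mapped by the authors to mm10 (TopHat), and they deposited 1 FPKM value per gene row and library from Cufflinks; versions, annotation and any scaling between libraries are not given in the sources used here. Since the deposited FPKM values hold no counts, neither count models nor intervals for counting error were used. Groups follow the titles given by the submitters, which cover every column. The members and the gene lists were chosen with earlier results of these data known, and lists were counted without the members.

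Rows with at least 0.1 FPKM in 3 of 12 libraries were tested with limma 3.58.1 in R 4.3.3 (lmFit, eBayes with trend) on log2(FPKM + 0.1), and p-values were adjusted by Benjamini-Hochberg (10% FDR). The procedure was run on simulated data, with normally distributed noise on that scale and log2 changes of 1 or 2. It recovered 179 of 200 changed rows and called 16 unchanged ones. No counting noise was simulated, so this run cannot speak for rows of few fragments such as the members. The genes named are the 20 members with the widest gap between Dnmt1 CKO and the rest, members on a list, the 3 rows nearest the threshold on either side, the 5 rows of widest gap by the other rules, and the genes that check the labels; any other named gene was picked with its values in view. Positions came from GENCODE M21, promoter windows and current symbols from RefSeq (GRCm38.p6). Copies were marked by 50-base words shared between annotated transcripts. Python 3.11.15, numpy 2.4.6, pandas 2.3.3 and matplotlib 3.10.9 were used. The lists of imprinted genes, methylation genes, interferon genes and cell type markers were written by hand. The summed level of the microglia markers is not reported here. Alternatives were other thresholds of the rule, another pseudocount or filter, no trend, rescaled libraries, sums per symbol, 1 model of all 12 libraries, the replicate number as a block, and each library left out.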

Additional observations from a re-analysis of the deposited data

Results flagged for a closer look

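The report names 30 list genes that were called after loss of Dnmt1. For 10 of these, the change on knockout was not the same in both lines by limma's interaction test over all 12 libraries at 10% FDR. The 30 genes were called on the change in the Dnmt1 line, which is itself part of this test, so their selection favours a call. The count of 10 has no share of all rows beside it and is a description only. On the log2 scale the change in the Dnmt1 line exceeded that in the Dnmt3a line by 3.35 for Psg23 (adjusted p = 2.4e-07), by 1.66 for Isg15 (adjusted p = 0.00858), by 0.85 for Suv39h2 (adjusted p = 0.0158) and by 0.72 for Ifitm3 (adjusted p = 0.0526). It was lower, with a difference of -1.79 for Mbp (adjusted p = 2.2e-05), -0.87 for Bmp4 (adjusted p = 0.0032), -0.70 for Olig1 (adjusted p = 0.0278), -0.64 for Gpr17 (adjusted p = 0.00178), -0.47 for Slc39a12 (adjusted p = 0.0237) and -0.44 for Neu4 (adjusted p = 0.0182). Of the called neighbours, Cpox differed by -0.33 (adjusted p = 0.0152). Genes that the rule, its mirrored form or its Dnmt3a form took, or that lay just outside its threshold, are not listed here, because these values chose them. Groups of 3 libraries are too small for a test of single outlying libraries, and none was run.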

How the results depend on the processing

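The rule's count of 30 rows moved to 17 with a minimum of 0.2 FPKM and to 57 when only the 3 Dnmt1 Control libraries stood as low ones. With the 6 other libraries that have Y transcripts as the low ones it was 39. Leaving out single libraries gave 30 to 46 rows, the highest without Dnmt1 CKO replicate 3. The mirrored count of 10 became 1 at over 3 times and 17 at over 1.5 times, and was 10 to 15 with a library left out. The count of 1 in Dnmt3a CKO became 4 against the controls of that line alone, and 1 to 4 with a library left out (4 without Dnmt3a CKO replicate 1 or 3, 2 without replicate 2).

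The 0 members called in the Dnmt3a line and between controls remained 0 in all 26 alternatives that gave a value, where leaving out libraries gave 0 to 0; with a minimum mean of 0.5 FPKM no member row was left to test. These zeros show no stability, since the rule capped the members in all these libraries. In the Dnmt1 line, the 193 rows called higher became 115 with that minimum and 124 with the replicate block, and 120 to 190 with a library left out (120 without replicate 1 of Dnmt1 CKO, 122 without replicate 2 of Dnmt1 Control). The 366 rows called lower became 221 with the replicate block, and 195 to 314 with a library left out (195 without replicate 2 of Dnmt1 Control, 197 and 202 without replicates 1 and 3 of Dnmt1 CKO). The 54 list genes called were 40 to 50 with a library left out. The cause of these shifts was not tested. The replicate numbers do not pair the samples: the correlations of same-numbered deviations were -0.0792 to 0.198. With the replicate block 42 list genes were called in the Dnmt1 line. The members within 100 kb of another, 0, became 2 within 1 Mb. The median ratio of observed to expected CpG, 0.320, was 0.436 over the members with 1 row and 1 annotated gene. Levels near 0.1 FPKM rest on few fragments, with an estimated 3.70 for 2010005H15Rik and 4.90 for Gm3404 in their lowest Dnmt1 CKO library.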
